A study of Mus musculus with 6 samples.

Results

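The genes described here are 33 genes by which microglia and macrophages are recognised, read by symbol from a count table of 24421 genes; all 33 symbols were in the table. They were measured by bulk RNA-seq in retinal cells that the labels call isolated endothelial cells, from mouse pups of mixed BL6/CD1 strain at postnatal day 7. In the 3 Smad4-iECKO samples the floxed gene Smad4 was combined with Cdh5-CreERT2, a Cre recombinase that tamoxifen activates and an endothelial cadherin promoter drives. In the 3 Smad4f/f samples Smad4 was floxed and no Cre was present. The labels give tamoxifen at postnatal day 1 for every sample, so both groups share the floxed allele and the drug. How many pups went into a sample is not stated, and p-values therefore cover the spread between samples, which may be technical. Of the titles, 4 (2 in each group) start with Lit38 and the others (1 in each group) with Lit40. They are written below as prefix 38 and prefix 40.

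Microglia are the resident macrophages of the retina and brain. They depend on signalling through the receptor CSF1R and on the transcription factors PU.1 and IRF8. They sense their surroundings through purine, chemokine and lipid receptors. Among these, the lipid-sensing receptor TREM2 signals through the adaptor protein TYROBP. In the growing retina microglia lie close to sprouting vessels. In bulk RNA, fewer cells of a type and less RNA per cell cannot be told apart.

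Total counts ran from 2233360 to 17677696 in Smad4-iECKO and from 12633018 to 23164952 in Smad4f/f libraries. Transcripts of 14 endothelial markers took 0.286% to 0.522% of counts in Smad4-iECKO and 0.172% to 0.833% in Smad4f/f libraries, and 12 rod photoreceptor markers took 0.585% to 0.835% in Smad4-iECKO and 0.572% to 1.09% in Smad4f/f, so the libraries held neural RNA as well as endothelial RNA. Smad4 itself ranged over 93.9 to 133.9 CPM (counts scaled to library size by TMM) in Smad4-iECKO libraries and over 109.5 to 157.5 CPM in Smad4f/f libraries, and a count per gene does not show which exons were present. The shallowest library, Smad4-iECKO replicate 2, stood apart by its gaps. Of 12096 genes whose level in the other 5 libraries predicted at least 10 reads at its depth, 326 (2.70%) had no read in it. The other libraries, thinned to the same depth, had no read for 0.00826% to 0.0411% of such genes. A count of 3, taken as the floor, was 1.39 CPM in this library and 0.123 to 0.239 CPM in the others, and this covers counting error only.

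The labels set cells of pups with the endothelial Cre, in which deletion of Smad4 was induced, against cells of pups without Cre. Presence of Cre and loss of Smad4 cannot be told apart in this design, and the Smad4 counts do not show the deletion (log2 fold change -0.24, standard error 0.29). In edgeR's quasi-likelihood test, with p-values adjusted by Benjamini-Hochberg over all 14362 genes, 0 of 32 tested members passed (0% of all tested genes did, in either direction). The direction was uneven. Without a filter on low counts, 30 of the 33 members had a positive log2 fold change of Smad4-iECKO over Smad4f/f, against 46.1% of all 19650 genes. With the filter, 29 of 32 were positive (48.2% of all tested genes), with a median of 0.76 against -0.017 over all tested genes. Leaving out single libraries moved the median to between 0.45 (Smad4f/f replicate 2 omitted) and 1.14 (Smad4f/f replicate 1 omitted). Siglech was the member that missed the filter. Of the 32 that passed it, 3 (Tmem119, Trem2 and Aif1) reached the minimum of 0.757 CPM in all 3 Smad4-iECKO libraries but not in all 3 Smad4f/f libraries, so their presence in the test is tied to the group in which they were high. An unadjusted p under 0.05 was reached by 3 members, Itgam, Laptm5 and C1qc, all higher in Smad4-iECKO (9.38% of members, against 0.919% of all tested genes in this direction and 1.31% in either). By DESeq2 6 of 33 members did so in this direction (1.63% of all genes), and 0 passed its adjusted threshold (0.0611% of all genes did, in either direction).

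**Figure D1:**
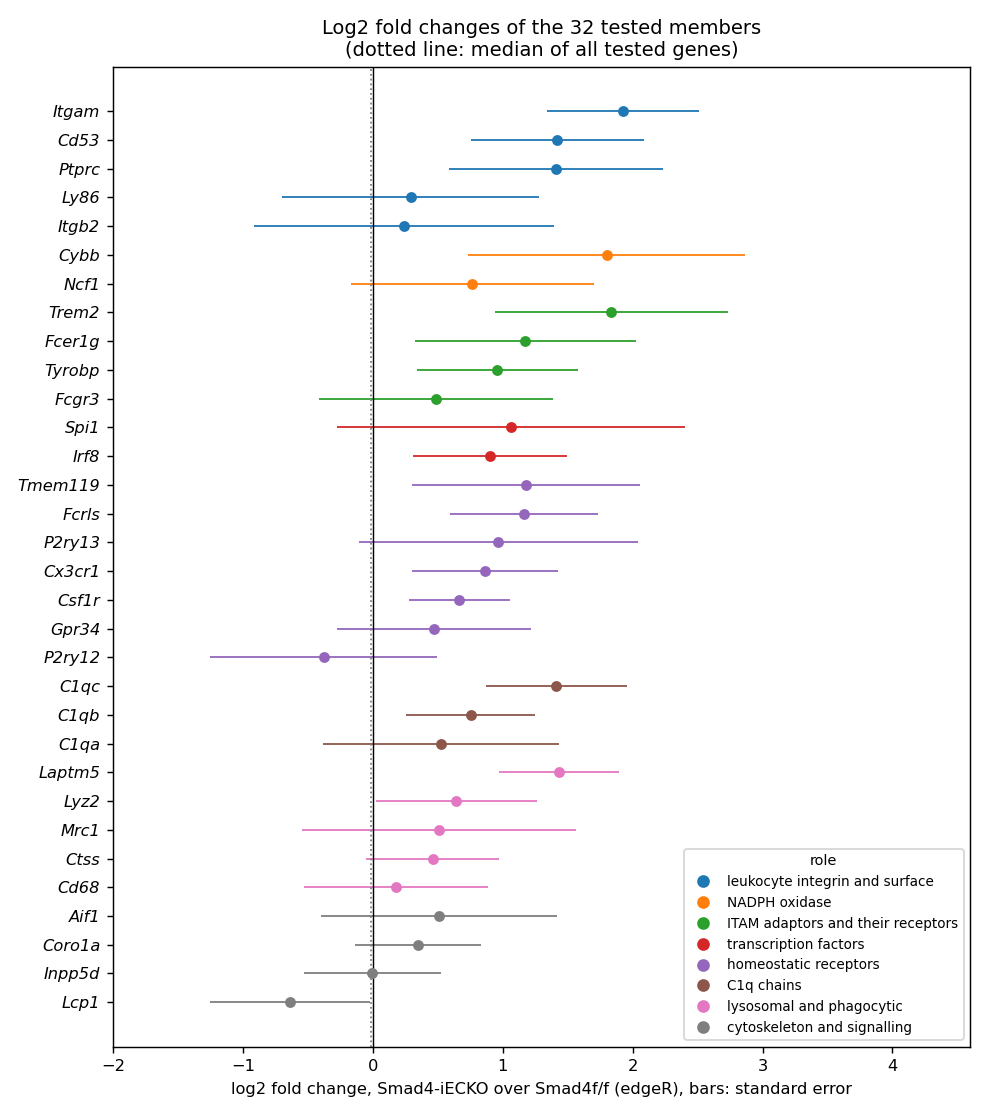
Log2 fold changes of Smad4-iECKO over Smad4f/f (x axis, edgeR) for the 32 tested members, grouped and coloured by role; points are estimates, bars their standard errors, and the dotted line the median of all tested genes (-0.017). Of the 32 points, 29 lie right of 0, Itgam farthest (1.93), and Lcp1 lies farthest left (-0.64).

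In 7 members every Smad4-iECKO library was above every Smad4f/f library (2.49% of all tested genes did this), and in 0 the reverse held (2.83% of all tested genes). These were Itgam, Laptm5, C1qc, C1qb, Cd53, Trem2 and Tmem119. Itgam, C1qc, C1qb, Trem2 and Tmem119 were highest in Smad4-iECKO replicate 2, the shallow library with gaps, with 26, 34, 19, 18 and 4 reads. Laptm5 and Cd53 were highest in Smad4-iECKO replicate 3. Trem2 and Tmem119 reached the filter's minimum in all 3 Smad4-iECKO but not in all 3 Smad4f/f libraries, so their place in this count is tied to the filter. Their closest libraries were also nearly level. These were at 1.91 CPM in Smad4-iECKO against 1.87 in Smad4f/f for Trem2, and at 0.797 against 0.788 for Tmem119. Promoter sequences from RefSeq (GRCm38.p6, the build of mm10) were available for 6 of the 7 and for 26 of the 33 members. They are shown because PU.1, the product of the member Spi1, is known to bind the purine-rich letters GAGGAA in promoters of myeloid genes. Each line gives the 250 bases before the gene's RefSeq start, 5′ to 3′ on the gene's own strand, with GAGGAA or its reverse complement in capitals. In the GENCODE M21 annotation, Laptm5 (from 130913125) and C1qc (from 136893065, minus strand) start upstream of the RefSeq start. Part of their windows thus lies within the annotated gene.
Itgam, chr7:128062390-128062639, plus strand: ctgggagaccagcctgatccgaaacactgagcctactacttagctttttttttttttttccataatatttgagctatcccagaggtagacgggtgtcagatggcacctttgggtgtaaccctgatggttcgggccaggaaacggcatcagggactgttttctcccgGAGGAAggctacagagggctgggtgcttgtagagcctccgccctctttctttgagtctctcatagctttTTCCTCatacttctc
Laptm5, chr4:130913066-130913315, plus strand: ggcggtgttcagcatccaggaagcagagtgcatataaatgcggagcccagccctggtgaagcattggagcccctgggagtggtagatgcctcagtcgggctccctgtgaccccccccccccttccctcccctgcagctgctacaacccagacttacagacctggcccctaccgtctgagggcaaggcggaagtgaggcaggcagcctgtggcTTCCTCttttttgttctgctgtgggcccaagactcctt
C1qc, chr4:136892915-136893164, minus strand: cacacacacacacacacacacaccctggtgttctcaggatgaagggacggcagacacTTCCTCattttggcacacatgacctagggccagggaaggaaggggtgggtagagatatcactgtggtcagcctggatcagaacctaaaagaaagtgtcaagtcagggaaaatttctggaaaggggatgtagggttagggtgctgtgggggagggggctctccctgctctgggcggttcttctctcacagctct
C1qb, chr4:136886201-136886450, minus strand: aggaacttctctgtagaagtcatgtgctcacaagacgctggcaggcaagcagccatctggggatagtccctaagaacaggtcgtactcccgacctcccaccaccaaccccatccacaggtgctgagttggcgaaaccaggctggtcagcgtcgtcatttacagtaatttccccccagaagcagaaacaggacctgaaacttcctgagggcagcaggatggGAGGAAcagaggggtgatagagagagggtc
Cd53, chr3:106790150-106790399, minus strand: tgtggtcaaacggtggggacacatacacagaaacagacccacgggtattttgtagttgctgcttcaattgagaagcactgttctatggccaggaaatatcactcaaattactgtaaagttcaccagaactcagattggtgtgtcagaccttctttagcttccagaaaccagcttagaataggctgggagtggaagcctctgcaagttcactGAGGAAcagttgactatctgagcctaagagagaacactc
Trem2, chr17:48346151-48346400, plus strand: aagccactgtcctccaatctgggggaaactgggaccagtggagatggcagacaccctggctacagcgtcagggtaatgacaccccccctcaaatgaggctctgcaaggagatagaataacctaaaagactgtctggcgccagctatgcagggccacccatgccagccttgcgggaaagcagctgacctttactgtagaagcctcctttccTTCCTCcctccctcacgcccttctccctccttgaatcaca

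The letters GAGGAA, searched on both strands, were in the window of each of these 6 genes and in 15 of the 26 members with a promoter (57.7%), against 25.9% of all 27025 genes and 23.3% of all 32851 promoters in the table. In Itgam they occurred 2 times, beginning 84 and 15 bases before the RefSeq start. In Laptm5, Trem2, Cd53 and C1qb they occurred once within 40 bases of that start, and in C1qc 193 bases before it. The longer letters GAGGAAGT, which contain the shorter ones, were in 2 members, C1qc and Inpp5d (7.69% of members, 2.79% of all genes). The ETS-IRF composite motif, at which PU.1 and IRF8 are known to bind together, was in 0 of the 26 members (2.68% of all genes). Lcp1 and Coro1a had none of these letters in either of their listed promoters. A match is a description of the letters and was not tested as a binding site.

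Among the leukocyte integrin and surface genes, all 5 had positive log2 fold changes (median 1.41). Itgam (chromosome 7, 128062640 to 128118491, mm10, GENCODE M21) encodes the integrin alpha chain CD11b, which pairs with the beta chain of Itgb2 to form complement receptor 3. Itgam was at 5.44, 12.1 and 8.93 CPM in Smad4-iECKO replicates 1, 2 and 3, against 2.05, 1.44 and 3.37 CPM in the same order of Smad4f/f replicates. The groups did not overlap, from which the same order within each title prefix follows. Itgam averaged 8.82 ± 3.32 CPM in Smad4-iECKO libraries and 2.29 ± 0.984 CPM in Smad4f/f (SD, n = 3 each), with a log2 fold change of 1.93 (standard error 0.58, edgeR unadjusted p = 0.00923, adjusted p = 1.00). Omitting any 1 library left it between 1.64 and 2.31. Itgb2, the gene of its partner chain, was at 2.11, 0 and 4.78 CPM in Smad4-iECKO, against 4.42, 0.206 and 1.87 CPM in Smad4f/f, with overlap (log2 fold change 0.24, standard error 1.16). Whether the 2 genes differed from each other was not tested.

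Ptprc, the leukocyte phosphatase CD45, was at 8.11, 1.86 and 17.2 CPM in Smad4-iECKO, against 5.91, 1.07 and 3.67 CPM in Smad4f/f. Within each title prefix its Smad4-iECKO libraries were the higher ones, and over all 6 libraries the groups overlapped (log2 fold change 1.41, standard error 0.82). Cd53, a leukocyte tetraspanin, was at 3.50, 3.72 and 5.66 CPM in Smad4-iECKO, against 2.13, 0.741 and 2.02 CPM in Smad4f/f. These groups did not overlap (log2 fold change 1.42, standard error 0.67, edgeR unadjusted p = 0.0619). Ly86, the secreted partner of the toll-like receptor RP105, was at 4.22, 0 and 2.87 CPM in Smad4-iECKO, against 3.94, 0.700 and 1.80 CPM in Smad4f/f. Its groups overlapped.

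**Figure D2:**
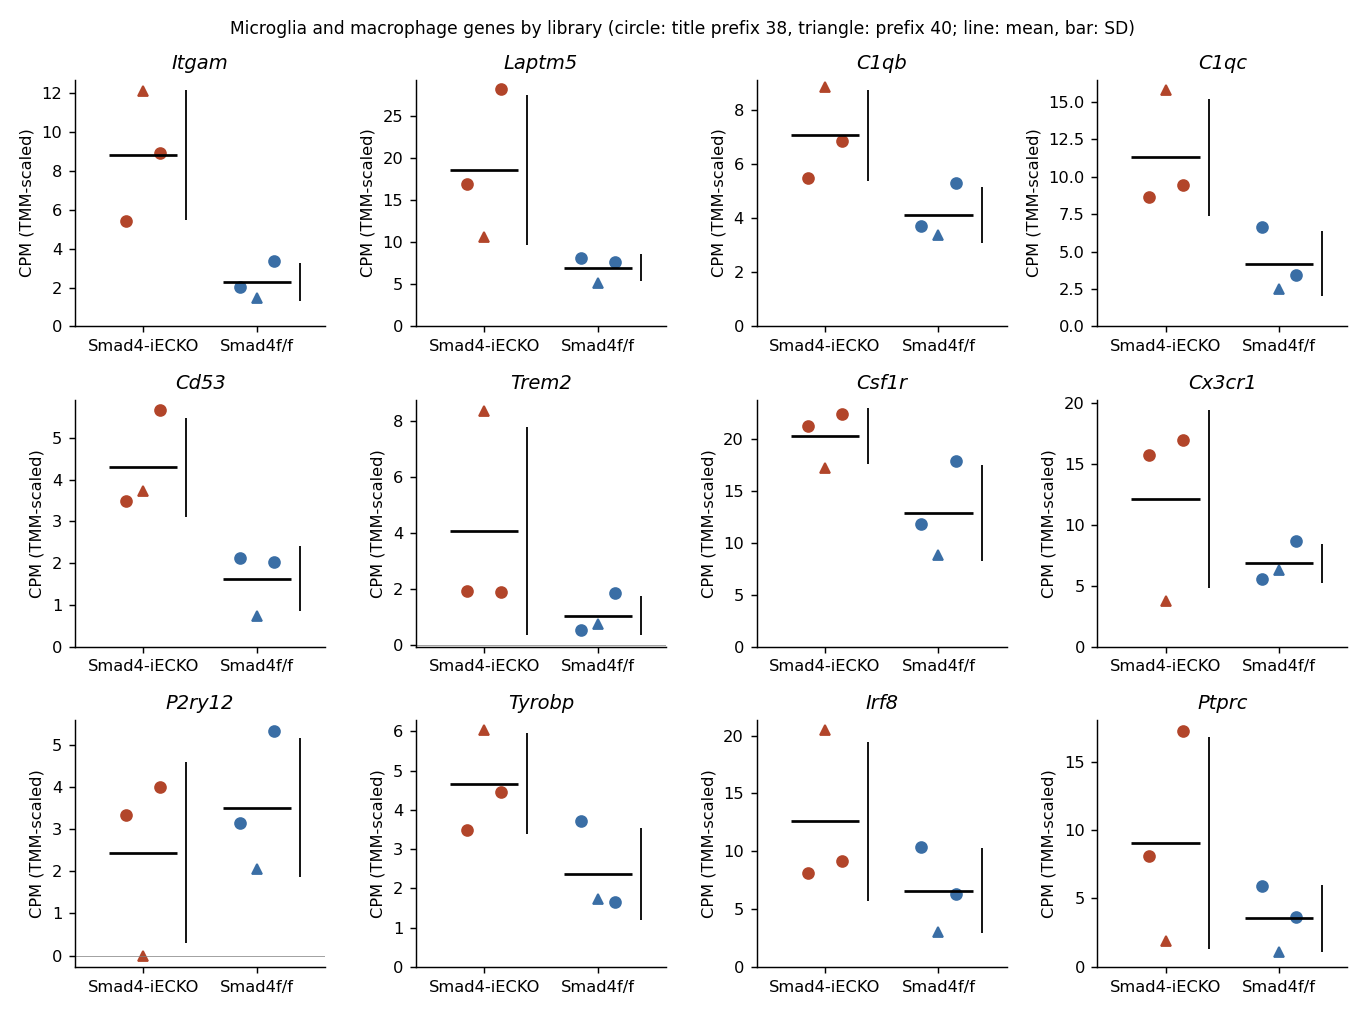
TMM-scaled CPM (y axis, from 0) of 12 members in the 3 Smad4-iECKO (red, left) and 3 Smad4f/f (blue, right) libraries; circles are title prefix 38, triangles prefix 40, horizontal lines means and vertical bars SD. Itgam, Laptm5, C1qb, C1qc, Cd53 and Trem2 have no overlap between groups, with the narrowest gap in Trem2 (1.91 against 1.87 CPM), and P2ry12 has the order reversed in its means (2.44 against 3.51 CPM).

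C1q, the recognition part of the classical complement pathway, is built from the chains of C1qa, C1qb and C1qc, which are neighbours on chromosome 4 (136880129 to 136898803, mm10, all on the minus strand) and are made in the brain mainly by microglia. Summed over the 3 genes, C1q transcripts were at 22.3, 24.6 and 27.9 CPM in Smad4-iECKO replicates 1, 2 and 3, against 16.01, 8.64 and 14.8 CPM in Smad4f/f. The sums did not overlap. C1qc was at 8.66, 15.8 and 9.49 CPM in Smad4-iECKO, against 6.62, 2.51 and 3.44 CPM in Smad4f/f, a log2 fold change of 1.41 (standard error 0.54, edgeR unadjusted p = 0.0279, adjusted p = 1.00). C1qb was at 5.50, 8.83 and 6.86 CPM in Smad4-iECKO, against 3.71, 3.37 and 5.31 CPM in Smad4f/f. It did not overlap either, with the closest libraries at 5.50 CPM in Smad4-iECKO libraries and 5.31 CPM in Smad4f/f (log2 fold change 0.75, standard error 0.50). C1qa was at 8.11, 0 and 11.6 CPM in Smad4-iECKO, against 5.68, 2.76 and 6.06 CPM in Smad4f/f. Smad4-iECKO replicate 2, the library with gaps, thus held 0 reads of C1qa beside 19 of C1qb and 34 of C1qc. In the other 5 libraries there were 0.857 to 1.76 reads of C1qa for each read of C1qc. Without that library the log2 fold change of C1qa was 1.01 and that of C1qc 1.10.

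**Figure D3:**
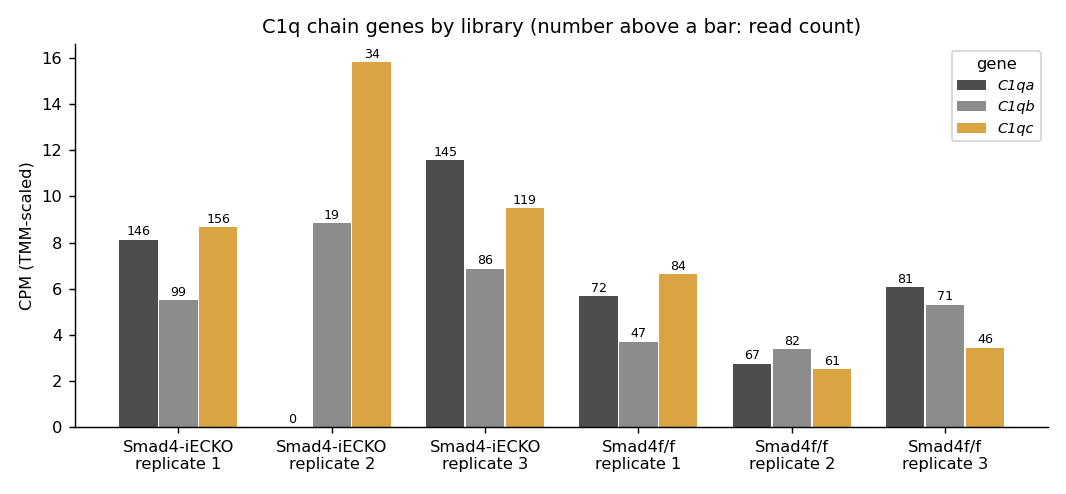
TMM-scaled CPM (y axis, from 0) of C1qa, C1qb and C1qc (bars from left to right in each library) in Smad4-iECKO replicates 1 to 3 and then Smad4f/f replicates 1 to 3, with the read count printed above each bar. All 3 chains have reads in 5 libraries. Smad4-iECKO replicate 2 lacks C1qa while its C1qc bar is the tallest of all (15.8 CPM, 34 reads).

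The adaptor genes Tyrobp and Fcer1g, whose products carry the activation motif (ITAM) for receptors with no signalling domain of their own, and the receptors Trem2 and Fcgr3 that use them were all positive (median 1.07). Summed, these 4 genes were at 9.66, 21.4 and 12.1 CPM in Smad4-iECKO, against 7.25, 5.76 and 6.66 CPM in Smad4f/f, without overlap. Among the role groups, only these sums and those of C1q stayed apart. In the others the lowest Smad4-iECKO sum lay below the highest Smad4f/f sum. These were 26.96 and 38.4 CPM for resting receptors, 8.16 and 11.7 for transcription factors, and 25.1 and 33.7 for lysosomal genes. They were 17.7 and 18.5 CPM for leukocyte genes, 111.5 and 377.4 for cytoskeletal genes, and 0 and 4.26 for oxidase genes. Tyrobp was at 3.50, 6.04 and 4.46 CPM in Smad4-iECKO, against 3.71, 1.73 and 1.65 CPM in Smad4f/f, where replicate 1 lay above the lowest Smad4-iECKO library. Trem2, a lipid-sensing receptor, was at 1.94, 8.37 and 1.91 CPM in Smad4-iECKO, against 0.552, 0.741 and 1.87 CPM in Smad4f/f. Its log2 fold change of 1.84 (standard error 0.90) was 0.86 without Smad4-iECKO replicate 2, where it had 18 reads. Fcer1g was likewise highest in that library (6.97 CPM, 15 reads), with 1.78 and 1.20 CPM in Smad4-iECKO replicates 1 and 3, against 1.34, 1.65 and 0.973 CPM in Smad4f/f. Fcgr3, a low-affinity IgG receptor, was at 2.44, 0 and 4.54 CPM in Smad4-iECKO, against 1.66, 1.65 and 2.17 CPM in Smad4f/f.

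Of the receptors that mark resting microglia, 6 of the 7 tested were positive (median 0.86), and no member of this group reached an unadjusted p under 0.05. Csf1r, the receptor for the growth factors CSF1 and IL34, was at 21.2, 17.2 and 22.4 CPM in Smad4-iECKO, against 11.8, 8.81 and 17.9 CPM in Smad4f/f. The groups overlapped by the highest Smad4f/f library alone (log2 fold change 0.67, standard error 0.39, edgeR unadjusted p = 0.118). Cx3cr1, the fractalkine receptor, was at 15.8, 3.72 and 17.0 CPM in Smad4-iECKO, against 5.60, 6.34 and 8.68 CPM in Smad4f/f. In the prefix 38 libraries it was higher in both Smad4-iECKO samples, and in the prefix 40 pair the Smad4-iECKO library, with 8 reads, was the lower. Fcrls, an Fc receptor-like gene of mouse microglia, was at 7.22, 3.25 and 8.85 CPM in Smad4-iECKO, against 2.68, 2.22 and 3.96 CPM in Smad4f/f (log2 fold change 1.16, standard error 0.57, edgeR unadjusted p = 0.0723).

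P2ry12, the ADP receptor that is the customary marker of resting microglia, lacked the positive sign. P2ry12 was at 3.33, 0 and 3.99 CPM in Smad4-iECKO, against 3.15, 2.06 and 5.31 CPM in Smad4f/f, a log2 fold change of -0.38 (standard error 0.87) that was 0.047 without Smad4-iECKO replicate 2. Its neighbour on chromosome 3, the related ADP receptor gene P2ry13, was at 1.94, 0 and 1.83 CPM in Smad4-iECKO, against 1.498, 0.165 and 0.598 CPM in Smad4f/f. Gpr34, a lysophosphatidylserine receptor, was at 2.44, 0.930 and 1.91 CPM in Smad4-iECKO, against 2.21, 1.03 and 0.823 CPM in Smad4f/f. Tmem119, a membrane protein used as a marker of microglia, rested on 19, 4 and 10 reads in Smad4-iECKO, against 10, 7 and 6 reads in Smad4f/f. In CPM these were 1.06, 1.86 and 0.797, against 0.788, 0.288 and 0.449, so its groups were apart by less than the floor of any library. Siglech, a sialic acid-binding lectin, was the scarcest member, with 0 to 9 reads in Smad4-iECKO and 2 to 9 reads in Smad4f/f libraries.

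The transcription factor genes were scarce or uneven. Irf8 was at 8.11, 20.5 and 9.17 CPM in Smad4-iECKO, against 10.4, 3.05 and 6.28 CPM in Smad4f/f, with overlap (log2 fold change 0.90, standard error 0.59). Spi1, the gene of PU.1, was at 0.0555, 4.18 and 1.04 CPM in Smad4-iECKO, against 1.34, 0.329 and 0.374 CPM in Smad4f/f. The Smad4-iECKO replicate 1 value was a single read in a library of 17677696, and the log2 fold change of 1.07 (standard error 1.34) became -0.37 without Smad4-iECKO replicate 2.

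All 5 lysosomal and phagocytic genes were positive (median 0.51). Laptm5, a lysosomal membrane protein of blood-derived cells, was at 17.0, 10.7 and 28.2 CPM in Smad4-iECKO, against 8.12, 5.18 and 7.71 CPM in Smad4f/f. The groups did not overlap (log2 fold change 1.43, standard error 0.46, edgeR unadjusted p = 0.0124, adjusted p = 1.00). Omitting any 1 library left it between 0.9988 and 1.67. Ctss, the protease cathepsin S, was at 16.2, 9.30 and 18.4 CPM in Smad4-iECKO, against 16.5, 4.94 and 11.0 CPM in Smad4f/f, with overlap. Lyz2, a lysozyme whose reads may be shared with its close paralog Lyz1, was at 5.28, 3.25 and 8.37 CPM in Smad4-iECKO, against 2.68, 2.30 and 6.13 CPM in Smad4f/f. Cd68, a lysosomal glycoprotein, was at 2.94, 1.86 and 4.46 CPM in Smad4-iECKO, against 4.49, 2.92 and 1.05 CPM in Smad4f/f, with no separation. Mrc1, the mannose receptor of border and perivascular macrophages, was at 1.22, 0 and 2.15 CPM in Smad4-iECKO, against 1.97, 0.412 and 0.374 CPM in Smad4f/f. The oxidase subunit genes Cybb and Ncf1 were at 0 in Smad4-iECKO replicate 2. In Smad4-iECKO replicates 1 and 3 Cybb was at 1.72 and 4.86 CPM, against 0.394, 0.412 and 1.27 CPM in Smad4f/f. Ncf1 was at 3.94 and 6.54 CPM in the same libraries, against 2.52, 1.15 and 2.99 CPM in Smad4f/f. In both genes the prefix 38 libraries of Smad4-iECKO were the highest and the 0 lay below the floor of its library.

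Of the cytoskeletal and signalling genes 2 of 4 were positive (median 0.17), Inpp5d being close to 0 (-0.0033, standard error 0.53) and Lcp1 negative (-0.64, standard error 0.62). Lcp1, the actin-bundling protein plastin of leukocytes, was the most abundant member, also per kilobase of exon (11.7 ± 3.55 CPM per kilobase in Smad4-iECKO and 18.2 ± 14.1 in Smad4f/f, SD, n = 3). It alone supplied 26.7% to 41.9% of the reads of all 33 members in Smad4-iECKO and 33.4% to 62.0% in Smad4f/f libraries. Lcp1 was at 73.8, 138.5 and 122.4 CPM in Smad4-iECKO, against 307.4, 39.3 and 173.1 CPM in Smad4f/f. The endothelial markers summed to 2812, 5417 and 4708 CPM in Smad4-iECKO, against 8301, 1642 and 5212 CPM in Smad4f/f. Lcp1 thus was highest in the library with the highest endothelial sum, Smad4f/f replicate 1, and lowest in the library with the lowest, Smad4f/f replicate 2, which was the lowest library for 15 of the 33 members. Over all 6 libraries 0 of the 33 members had exactly the order of the endothelial sum. Lcp1 departed from that order only in that Smad4f/f replicate 3 (173.1 CPM) and Smad4-iECKO replicate 2 (138.5 CPM) changed places. The endothelial sums of these libraries were 5212 and 5417 CPM. Inpp5d, the inositol phosphatase SHIP1, had the same highest and lowest libraries, at 24.4, 31.1 and 44.6 CPM in Smad4-iECKO, against 48.9, 10.9 and 40.9 CPM in Smad4f/f. So did Coro1a, the actin regulator coronin, at 11.7, 17.7 and 13.5 CPM in Smad4-iECKO, against 18.7, 6.71 and 8.005 CPM in Smad4f/f. Which cells these 3 transcripts came from was not tested. Aif1, which encodes the microglial stain antigen IBA1, was at 1.61, 2.79 and 0.877 CPM in Smad4-iECKO, against 2.37, 0.576 and 0.524 CPM in Smad4f/f, with overlap.

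Lcp1, Inpp5d and Coro1a held 39.7% to 56.7% of member reads in Smad4-iECKO and 48.3% to 75.7% in Smad4f/f libraries. The sum over all members thus depended strongly on these 3 genes. Over all 33 the sums were 276.7, 330.5 and 401.4 CPM in Smad4-iECKO, against 495.6, 117.7 and 332.3 CPM in Smad4f/f, with overlap. Over the 30 others, a subset chosen after the values were seen, the sums were 166.8, 143.2 and 221.004 CPM in Smad4-iECKO, against 120.6, 60.8 and 110.3 CPM in Smad4f/f. These did not overlap, from which the same order within both title prefixes follows. As shares of all reads the 30 genes took 0.0170%, 0.0138% and 0.0219% in Smad4-iECKO, against 0.0121%, 0.00638% and 0.0107% in Smad4f/f. The exact binomial 95% intervals of the closest pair were 0.0123% to 0.0154% in Smad4-iECKO replicate 2 and 0.0115% to 0.0127% in Smad4f/f replicate 1, which overlap. Averaged on the log scale, which weights members equally, the 32 tested members overlapped between groups, with a mean log2 CPM of 2.42, 1.83 and 2.79 in Smad4-iECKO, against 2.25, 1.28 and 1.96 in Smad4f/f. They overlapped relative to the endothelial markers as well. The mean log2 CPM of the 32 tested members minus that of the endothelial markers was -4.84, -6.22 and -5.20 in Smad4-iECKO, against -6.66, -5.18 and -6.15 in Smad4f/f. The 2 libraries of lowest endothelial sum, Smad4f/f replicate 2 and Smad4-iECKO replicate 1, were the 2 highest by this measure. Among astrocyte markers 5 of 6 were positive, with sums of 262.9, 173.4 and 696.6 CPM in Smad4-iECKO, against 399.2, 100.3 and 124.4 CPM in Smad4f/f. Pax2 was higher in all 3 Smad4-iECKO libraries (10.4 ± 7.76 CPM in Smad4-iECKO libraries and 2.53 ± 0.705 CPM in Smad4f/f, SD, n = 3). The part of astrocyte RNA or of endothelial share in the microglial values was not tested.

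**Figure D4:**
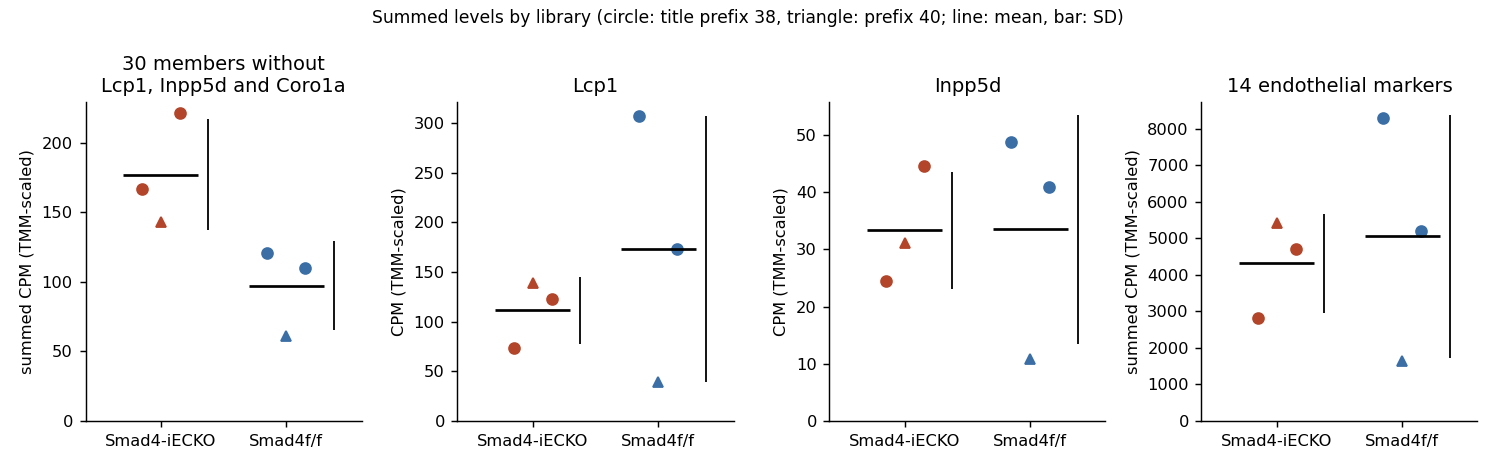
TMM-scaled CPM (y axes, from 0) by library, Smad4-iECKO left in red and Smad4f/f right in blue, for the sum of 30 members without Lcp1, Inpp5d and Coro1a (left out after their values were seen), for Lcp1, for Inpp5d and for the sum of 14 endothelial markers; circles are title prefix 38, triangles prefix 40, lines means and bars SD. The 30-gene sums (143.2 to 221.004 CPM and 60.8 to 120.6 CPM) do not overlap, while Lcp1, Inpp5d and the endothelial sum share their highest and lowest libraries, both Smad4f/f.

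Within the title prefixes, 27 of the 32 tested members were higher in Smad4-iECKO in prefix 38 (52.2% of all tested genes), with a median difference of mean log2 CPM of 0.57 (0.019 over all genes). In the prefix 40 pair, 20 of 32 were higher (47.5% of all tested genes), with a median of 0.89 (-0.080 over all genes). In that pair 10 of the 33 members, Siglech among them, had 0 reads in the Smad4-iECKO library. When the other 5 libraries were thinned to its depth, 1 to 5 members had 0 reads. The tested members at 0 there were P2ry12, P2ry13, C1qa, Fcgr3, Mrc1, Itgb2, Ly86, Ncf1 and Cybb, and the other tested members that were lower in this pair were Cx3cr1, Gpr34 and Cd68.

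Per kilobase of exon, ordered by the mean over all 6 libraries, the members after Lcp1 began with Ctss (10.8 ± 3.50 CPM per kilobase in Smad4-iECKO and 7.96 ± 4.25 in Smad4f/f), C1qa (6.30 ± 5.71 in Smad4-iECKO and 4.65 ± 1.74 in Smad4f/f) and Tyrobp (6.9998 ± 1.93 in Smad4-iECKO and 3.54 ± 1.75 in Smad4f/f). The differences between these neighbours were within their spread, and the order was not the same in the separate groups, where C1qb was at 6.49 ± 1.54 CPM per kilobase in Smad4-iECKO and 3.796 ± 0.952 in Smad4f/f. At the low end were Cybb, Mrc1 and Siglech, the last at 0.112 ± 0.0992 CPM per kilobase in Smad4-iECKO and 0.113 ± 0.0874 in Smad4f/f (SD, n = 3 throughout).

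Further microglial genes outside the 33 gave a mixed picture, and none passed the adjusted threshold. Of 16 tested, 11 were positive (median 0.41). Abi3, an actin regulator of microglia, was at 20.99, 53.0 and 31.8 CPM in Smad4-iECKO, against 18.8, 8.35 and 15.8 CPM in Smad4f/f (edgeR unadjusted p = 0.0203). Sall1, a transcription factor of microglial identity that neural progenitors and glia can express too, was at 9.33, 13.02 and 22.2 CPM in Smad4-iECKO, against 9.23, 5.51 and 6.88 CPM in Smad4f/f. Of 9 tested myeloid transcription factor genes 7 were positive, with Runx1, a transcription factor of blood cells, at 7.78, 12.6 and 10.3 CPM in Smad4-iECKO, against 5.36, 2.39 and 3.14 CPM in Smad4f/f (log2 fold change 1.48, standard error 0.51, edgeR unadjusted p = 0.0180). Pik3ap1, a signalling adaptor, averaged 3.01 ± 1.02 CPM in Smad4-iECKO libraries and 0.797 ± 0.341 CPM in Smad4f/f (SD, n = 3 each). Abi3, Sall1, Runx1 and Pik3ap1 did not overlap between groups. Leukocyte integrin and motility genes were positive in 8 of 11, with Dock2, a leukocyte guanine nucleotide exchange factor, at 6.11, 3.72 and 16.3 CPM in Smad4-iECKO, against 3.71, 1.81 and 3.82 CPM in Smad4f/f.

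Genes of activated microglia and of the lysosome at large did not lean one way. Of 9 tested activation genes 5 were positive (median 0.078), and of 14 lysosomal genes 6 were (median -0.072). Spp1, which encodes osteopontin, was at 2.72, 0 and 6.14 CPM in Smad4-iECKO, against 0.946, 0.165 and 0.598 CPM in Smad4f/f (log2 fold change 2.51, standard error 1.12). Complement genes other than C1q were positive in 7 of 9 (median 0.16), with the C3a receptor gene C3ar1 at 2.67 ± 0.481 CPM in Smad4-iECKO libraries and 1.19 ± 0.744 CPM in Smad4f/f. Fc receptor and ITAM signalling genes were positive in 3 of 6 (median 0.0061), with the kinase gene Syk at 27.9 ± 15.7 CPM in Smad4-iECKO libraries and 12.4 ± 6.12 CPM in Smad4f/f, and the oxidase partners in 3 of 3 (median 0.40). Ligands of microglial receptors were positive in 4 of 7 (median 0.084). The fractalkine gene Cx3cl1 was at 6.13 ± 1.64 CPM in Smad4-iECKO libraries and 10.6 ± 5.81 CPM in Smad4f/f, and Tgfb1 at 43.9 ± 25.4 CPM in Smad4-iECKO libraries and 23.8 ± 14.03 CPM in Smad4f/f. Il34, chosen here after its values were seen because it is a ligand of Csf1r, was at 10.6 ± 2.45 CPM in Smad4-iECKO libraries and 6.60 ± 3.52 CPM in Smad4f/f (SD, n = 3 each).

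Markers of other blood-derived cells were uneven between libraries. Of 11 border and perivascular macrophage markers only Lyve1, which lymphatic endothelium also expresses, passed the filter, and the list summed to 0 to 4.23 CPM in Smad4-iECKO libraries and 2.10 to 4.81 CPM in Smad4f/f libraries, with Timd4 and Cd209f at 0 in all 6. Of 13 monocyte and neutrophil markers 4 passed and 0 of these were positive, with sums of 0 to 22.3 CPM in Smad4-iECKO libraries and 3.70 to 26.5 CPM in Smad4f/f and Elane at 0 in all 6. Of 11 lymphocyte markers 4 passed and 4 were positive, with sums of 4.65 to 20.4 CPM in Smad4-iECKO libraries and 4.03 to 9.54 CPM in Smad4f/f libraries. The B cell gene Ms4a1 had 40, 0 and 65 reads in Smad4-iECKO, against 6, 2 and 19 reads in Smad4f/f. Erythroid markers summed to 0 to 26.2 CPM in Smad4-iECKO and 0.905 to 40.8 CPM in Smad4f/f libraries. Most of this came from Alas2, the haem synthesis enzyme of red cell precursors, and 2 of 2 tested were negative. The other 4 genes of the list, all globins, were at 0 in all 6. Whether globin reads were left out in counting is not given in the sources used here, so these zeros do not show that globin RNA was absent. The neutrophil gene S100a9 had 0 to 86 reads in Smad4-iECKO and 8 to 114 reads in Smad4f/f libraries. Mueller glia markers positive in 6 of 7 and pericyte markers in 7 of 9. The part of lymphocytes in Ptprc, Cd53, Coro1a and the other genes they share with microglia was not tested.

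In the authors' deposited table, 14 of the 31 members with an adjusted p had it under 0.05, all higher in Smad4-iECKO (7.7% of the 14225 genes with an adjusted p in that table were called higher, and 5.69% lower). The authors' deposited table gave Itgam a log2 fold change of 1.69 (standard error 0.22, adjusted p = 5.59e-12), Laptm5 1.33 (adjusted p = 3.71e-09) and C1qc 1.24 (adjusted p = 2.64e-06). The deposited count table held each sample in 3 identical columns. DESeq2 run on all 18 columns, as if each were a sample, called 15 of 33 members, all higher (7.28% of all genes were called higher and 4.79% lower), while on 1 column per sample it called 0. Its adjusted p for Itgam on 1 column per sample was 0.465. Whether the authors' comparison used all 18 columns is not given in the sources used here.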

How the data were processed

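RNA of 3 Smad4-iECKO and 3 Smad4f/f samples was purified with a GeneJet kit and made into TruSeq libraries, per the labels' protocols. The submitters' processing notes name STAR, DESeq2 and mm10. The sources used here do not give the counting tool, its annotation or its strand setting. The authors deposited whole read counts per gene, not normalized, with 3 identical columns per sample in all 24421 genes, of which 1 was used. The authors deposited as well a comparison table with a mean normalized signal, p-values and adjusted p-values, a log2 fold change with its standard error, and a score for the test, per the file headers.

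Groups came from the genotype label, and replicate numbers follow accession order and pair nothing. The test was edgeR 4.0.16 (R 4.3.3) quasi-likelihood on counts with TMM scaling, filterByExpr (minimum count 10, minimum total 15) and Benjamini-Hochberg adjustment over 14362 genes, threshold 0.05. The standard error is the log2 fold change divided by the square root of F. CPM were TMM-scaled, and log2 CPM used a pseudocount of 0.5. Alternatives used DESeq2 1.42.0 and limma 3.58.1. The edgeR, DESeq2 and voom fits were tested on simulated data. Coordinates and exon lengths are from GENCODE M21 (mm10) and promoters from RefSeq. The members, lists and tests were chosen with earlier results of these data known. Values per library were given for every tested member. Of each further list, genes came from the 3 smallest p and the most abundant. Exceptions were Il34 and the genes named as at 0 in every library. Vsir and Ly6g had no row under those symbols.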

Additional observations from a re-analysis of the deposited data

How the results depend on the processing

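No paired analysis was possible because the replicate numbers were given in accession order and the title prefix ties a single sample of each group only for prefix 40, leaving 2 samples of each group unmatched in prefix 38. The title prefix as a block called 0 genes. The 0 genes called became 9 higher and 3 lower with DESeq2, 8 higher with sample quality weights in limma-voom, and 1348 higher and 887 lower with DESeq2 on all 18 columns, which called 15 members. No member was called in any other fit. Positive members were 19 of 21 tested with a minimum count of 30 and 11 of 12 with libraries thinned to the smallest total. Leaving out each library in turn gave 0 calls, 24 to 31 positive members and a median of 0.45 to 1.14. In the runs with a library left out, the difference in mean log2 CPM of members kept its sign, from 0.24 to 0.75 (0.51 as reported). So did that relative to endothelial markers, from 0.25 to 0.989 (0.58 as reported). In the prefix 40 pair, members relative to endothelial markers were lower in Smad4-iECKO (-6.22) than in Smad4f/f (-5.18).

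Log2 fold changes that turned sign were those of genes with overlapping groups. Genes whose groups did not overlap keep their order when libraries are left out, so those runs could hardly turn their sign. Inpp5d (-0.0033) was 0.0083 with RLE and 0.036 with upper-quartile scaling, 0.014 with a minimum count of 30, 0.0045 with DESeq2, 0.0046 on all 18 columns, 0.29 with voom, 0.12 with quality weights, 0.21 with the prefix block, 0.28 with the endothelial covariate and 0.16 after thinning. Spi1 was -0.24 with voom, -0.69 with quality weights and -0.73 in prefix 38 alone. In prefix 38 alone Aif1 was -0.22, Coro1a -0.10 and Tgfb1 -0.048. With the prefix block Itgb2 was -0.038 and Ly86 -0.096. With each library left out, Inpp5d ranged from -0.43 to 0.37, Spi1 from -0.37 to 1.998, Ly86 from -0.34 to 1.07, P2ry12 from -0.82 to 0.047, C1qa from -0.092 to 1.01, Fcgr3 from -0.31 to 0.91, Cd68 from -0.22 to 0.66, Mrc1 from -0.18 to 1.67, Itgb2 from -0.70 to 1.31 and Lcp1 from -1.11 to 0.063; the cause was not tested. Most members had under 100 reads in most libraries, and in Smad4-iECKO replicate 2 a count of 3 was 1.39 CPM, which limits every direction given for low genes. Leaving out Lcp1, Inpp5d and Coro1a was chosen after seeing the data.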
